A study of Arabidopsis thaliana with 18 samples.

Results

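The gibberellin oxidases are the enzymes that make and break down the plant growth hormone gibberellin. The account covers 10 of them, taken by name from the 27444 nuclear protein-coding genes of the gene table used. GA20OX1 (AT4G25420), GA20OX2 (AT5G51810), GA20OX3 (AT5G07200), GA3OX1 (AT1G15550) and GA3OX2 (AT1G80340) encode enzymes of synthesis. GA2OX1 (AT1G78440), GA2OX2 (AT1G30040), GA2OX6 (AT1G02400), GA2OX7 (AT1G50960) and GA2OX8 (AT4G21200) encode enzymes of degradation. For each histone mark a gene was linked to the peak with the greatest overlap with the gene body, if 150 bp or more of the peak lay in the gene.

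The samples were apices enriched in shoot meristem from Arabidopsis thaliana at 5 weeks of age, kept at 21 °C with 8 h of light and 16 h of dark. The chr4/pkr1 mutant, named for a chromatin remodeller of the CHD type, gave 3 libraries each for H3K27me3, H3K4me3 and histone H3. The wild type gave the same set, so that there were 18 libraries in 6 groups. The labels give no allele for chr4, and the H3 libraries were not used here. For each mark the deposited table holds 1 value per peak for a pool called treat and 1 for a pool called control, and the table names say that 3 replicates were pooled. No header says which pool is the mutant, so differences are given as treat pool against control pool. Without values per replicate, no difference could be compared with a replicate error, and the depth of the libraries is unknown. Peak positions are those of the deposited tables, on the build TAIR10. Height and total signal per peak are scores without a stated unit. Total signal was larger at longer peaks (Spearman's rho 0.874 for H3K27me3 and 0.649 for H3K4me3, over peaks of the same pools), so levels of different genes are mostly compared by height. Where a percentile or the lower quartile of mean signal is given instead, it also follows peak length.

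Gibberellin is built from a diterpene in several steps. The GA20OX enzymes remove a carbon to give the immediate precursors, the GA3OX enzymes turn these into the active hormone, and the GA2OX enzymes inactivate the hormone or its precursors. GA2OX7 and GA2OX8 act on earlier precursors, which still carry the carbon that GA20OX removes, while GA2OX1, GA2OX2 and GA2OX6 act on later ones. Active gibberellin promotes stem growth and, in short days, flowering of Arabidopsis, while it is kept low in the meristem centre. H3K27me3 is laid down by Polycomb complexes at repressed genes, and H3K4me3 lies at the start of transcribed genes.

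H3K27me3 was the prevalent mark at these genes. A linked H3K27me3 peak was found at 9 of the 10 genes, whereas 24.7% of all protein-coding genes had one. A linked H3K4me3 peak was found at 3 of the 10, whereas 58.5% of all protein-coding genes had one. Those 3 genes, GA20OX1, GA3OX1 and GA2OX2, had peaks of both marks, as 3.35% of all protein-coding genes did. A peak counted here need not have a width in both pools. The H3K27me3 peak of GA3OX1 had a width of 0 bp in the treat pool. The H3K4me3 peak of GA20OX1 had a width of 10 bp in the control pool. The genes GA20OX2, GA20OX3, GA3OX2, GA2OX6, GA2OX7 and GA2OX8 had H3K27me3 only. GA2OX1 had neither mark, and its nearest peaks lay 3420 bp (H3K27me3) and 1761 bp (H3K4me3) from the gene. In this mixed tissue, fewer cells carrying a mark and less mark per cell cannot be told apart.

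**Figure D1:**
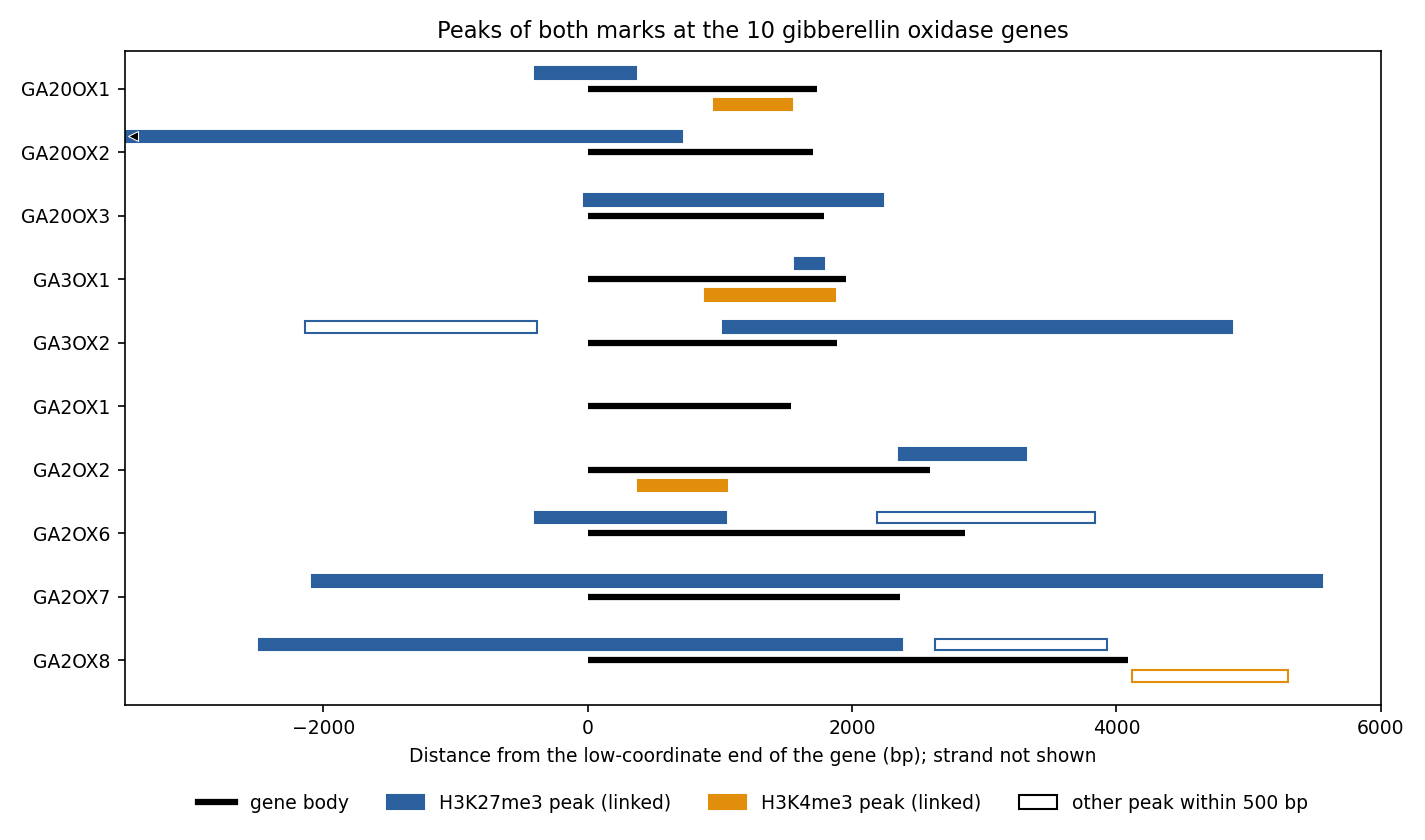
Position of the peaks at the 10 gibberellin oxidase genes. The x axis is the distance in bp from the low-coordinate end of each gene, black lines are gene bodies, blue boxes H3K27me3 peaks, orange boxes H3K4me3 peaks, filled boxes the linked peaks and open boxes other peaks within 500 bp; the arrowhead marks a peak that runs past the plot. GA20OX1, GA3OX1 and GA2OX2 have linked peaks of both marks, and GA2OX1 has none.

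The 3 genes with both marks had short and low H3K27me3 peaks. Their peak heights ran from 133 to 1585 in the treat pool and from 1008 to 1491 in the control pool. At the 6 genes with H3K27me3 only, heights ran from 4470 to 13284 in the treat pool and from 5140 to 19295 in the control pool. The ranges of the 3 and the 6 genes do not overlap in either pool, which describes these genes alone. The height of 133 is that of GA3OX1, whose peak had a width of 0 bp in the treat pool. Peak lengths were 220 to 960 bp at the 3 genes and 1450 to 11700 bp at the 6. The grouping was made after the peaks were seen, and no test was made of it. The same comparison was not made over the 920 protein-coding genes with both marks. Outside the oxidases, RGL3 had both marks and a low H3K27me3 peak of 650 bp (height 832 in treat, 1952 in control). The meristem genes STM and KNAT1 also had both marks, but their H3K27me3 peaks were long (13640 and 5810 bp). Their heights were 10570 and 6739 in the treat pool and 16096 and 9739 in the control pool.

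The marks were arranged differently at the 3 oxidase genes with both. At GA3OX1 the whole 220 bp H3K27me3 peak lay inside the H3K4me3 peak, but that H3K27me3 peak had a width in the control pool alone. At GA20OX1 the peaks of the marks were 590 bp apart, and at GA2OX2 they were 1300 bp apart. The gene table gives no strand, so no peak could be placed relative to the start of transcription.

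The H3K27me3 comparison asked where this mark differed between the pools. GA3OX1 had the largest difference of the 9 genes. Total signal was lower in the treat pool at all 9, but the sign turned at GA20OX1 with peak height or recentring and at GA2OX7 with recentring. A call needed an FDR below 0.05 in the authors' deposited table together with a difference in total signal of 1.5-fold or more. Under that rule 1 of 9 genes was lower, against 2.95% of the 6773 protein-coding genes with a peak, and none was higher, against 1.17%. At least 1.5-fold lower, whatever the FDR, was again 1 of 9 genes, against 12.2% of all genes. A ratio below 1 was found at 9 of 9 genes and at 73.0% of all genes. The median log2 ratio was -0.36 over the 9 genes and -0.18 over all genes. After recentring on the median of all nuclear peaks, which was -0.14, the median of the 9 was -0.22, and the ratios of GA20OX1 (0.038) and GA2OX7 (0.092) were above 0. The mitochondrial peaks, 32 in number, had a median H3K27me3 log2 ratio of 1.62, opposite in direction to the oxidase genes; its part in these differences was not tested.

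**Figure D2:**
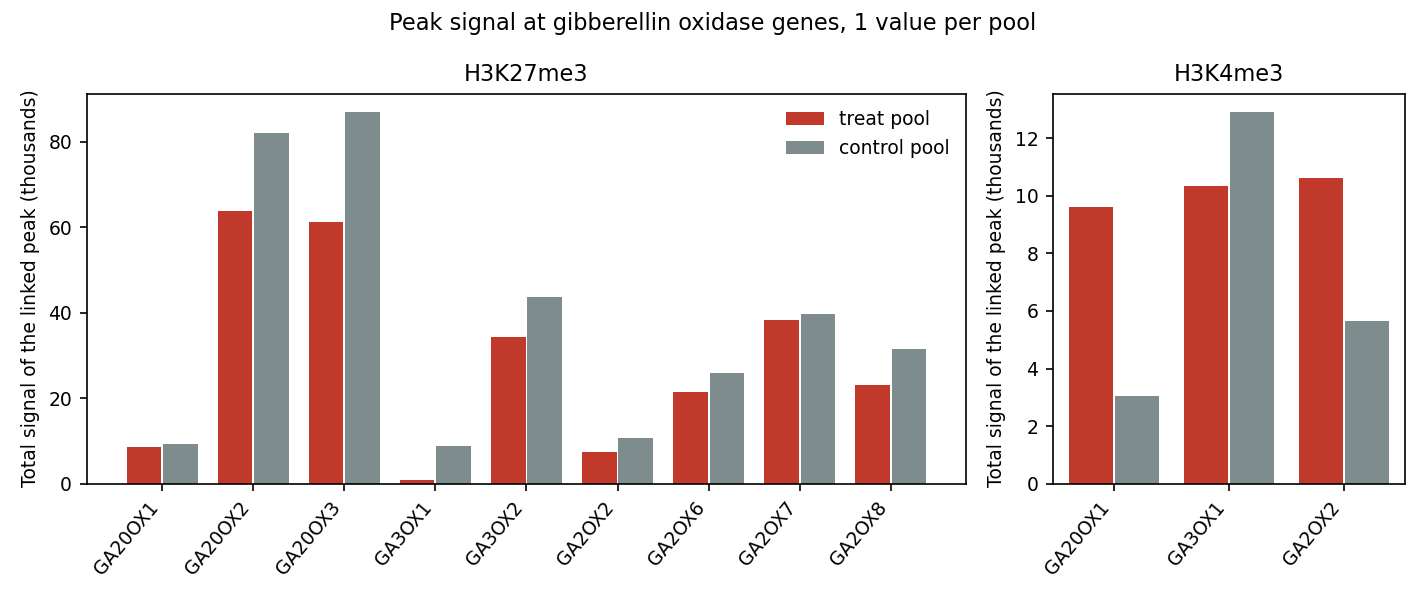
Total signal of the linked peak at each gibberellin oxidase gene with a peak, with the y axis scaled as labelled, for the treat pool (red, left) and the control pool (grey, right), with H3K27me3 in the left panel and H3K4me3 in the right panel on its own scale. H3K27me3 bars are lower in the treat pool at all 9 genes (GA20OX1 turns with peak height or recentring, GA2OX7 with recentring) and lowest at GA3OX1, while H3K4me3 bars of GA20OX1 and GA2OX2 are taller in the treat pool.

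Among the genes of synthesis, the highest H3K27me3 peaks were at GA20OX2 and GA20OX3. GA20OX3, which acts with the other GA20OX enzymes, lay wholly inside its H3K27me3 peak (chromosome 5, 2243530 to 2245790). The total signal there was 61232 in the treat pool and 86982 in the control pool, a 1.42-fold difference that was not called (the authors' deposited table gives FDR 0.0642). Its peak height was 11976 in the treat pool and 19106 in the control pool. With height as the measure, GA20OX3 was the gene called lower (1.60-fold, FDR 0.0298 in the authors' deposited table), against 2.91% of all genes called lower by height. The mean height of GA20OX3 lay at percentile 96.0 of all genes with an H3K27me3 peak.

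GA20OX2, which acts with GA20OX1 in stem growth and flowering, took a peak of 11700 bp (chromosome 5, 21044190 to 21055890). Only 712 bp of it lay in the gene, 41.8% of the gene body, while 3879 bp lay in AT5G51800 and 4 bp in AT5G51795. The total signal was 63822 in the treat pool and 82072 in the control pool, and the height 13284 in the treat pool and 19295 in the control pool. GA20OX2 was not called by signal (FDR 0.161 in the authors' deposited table) or by height (FDR 0.0527 in the same table), and its values describe the whole shared peak.

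GA20OX1, whose loss gives semi-dwarf plants, carried a low H3K27me3 peak over one end of the gene (chromosome 4, 12990450 to 12991220), which covered 21.3% of the body. The total signal was 8622 in the treat pool and 9273 in the control pool. The height was 1585 in the treat pool and 1395 in the control pool, so the measures pointed in opposite directions, and neither difference was called. For total signal the authors' deposited table gives FDR 0.867.

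GA3OX1, which catalyses the final step to active gibberellin in the growing shoot, was the gene called lower by total signal. Its H3K27me3 peak (chromosome 1, 5345960 to 5346180) had a total signal of 928 in the treat pool and 8930 in the control pool, 9.62-fold lower (FDR 0.0259 in the authors' deposited table). The deposited width was 0 bp in the treat pool and 220 bp in the control pool, so the peak had a width in the control pool alone. It was the weakest of the 9 peaks, at percentile 0.664 of mean height among all genes, and it covered 11.2% of the gene. Such low peaks were called lower more often: among the 380 genes with a mean signal in the lower quartile of all peaks, 15.5% were. By height (133 in the treat pool and 1008 in the control pool) GA3OX1 was 7.60-fold lower but not called (the authors' deposited table gives FDR 0.0552).

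GA3OX2, the paralogue that acts alongside GA3OX1 in germinating seed, had a broad peak (chromosome 1, 30201490 to 30205340) that ran past the gene and reached 27 bp into ERH3, a gene for a subunit of katanin, which severs microtubules. The total signal was 34271 in the treat pool and 43763 in the control pool, a 1.28-fold difference that was not called (FDR 0.289 in the authors' deposited table). A separate H3K27me3 peak ended 385 bp from GA3OX2 (chromosome 1, 30198330 to 30200080) and covered 81.7% of its neighbour GA3OX4, another GA3OX gene. That peak had a total signal of 12682 in the treat pool and 27582 in the control pool. It was called lower, 2.17-fold at FDR 0.0431 in the authors' deposited table. By height the difference was 2.08-fold, nearly as large, but it was not called (FDR 0.0583 in the authors' deposited table).

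Among the genes of degradation no H3K27me3 difference was called, against 2.95% of all genes with a peak called lower and 1.17% called higher. GA2OX7 lay wholly inside a peak of 7640 bp (chromosome 1, 18887390 to 18895030), where total signal reached 38231 in the treat pool and 39606 in the control pool. At 1.04-fold this was the smallest difference of the 9 genes. GA2OX8 had 2 peaks over the gene. The linked one (chromosome 4, 11300200 to 11305060) had 23085 in the treat pool and 31461 in the control pool, a 1.36-fold difference. The other one (11305310 to 11306610) had 15867 in the treat pool and 26737 in the control pool, a 1.69-fold difference at FDR 0.132 in the authors' deposited table. Together the peaks covered 90.0% of GA2OX8, and both were lower in the treat pool without a call.

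GA2OX6 also had 2 peaks, with a stretch outside any peak between them, and together they covered 1712 bp of the gene. The linked one (chromosome 1, 486400 to 487850) had 21431 in the treat pool and 26006 in the control pool, and the other (488990 to 490640) had 15287 in the treat pool and 22090 in the control pool. At GA2OX2 a peak of 960 bp (chromosome 1, 10539810 to 10540770) reached 234 bp into the gene. Its total signal was 7307 in the treat pool and 10658 in the control pool, a 1.46-fold difference at FDR 0.419 in the authors' deposited table. GA2OX2 and GA3OX1 were the genes nearest above the 150 bp limit of the link in H3K27me3.

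**Figure D3:**
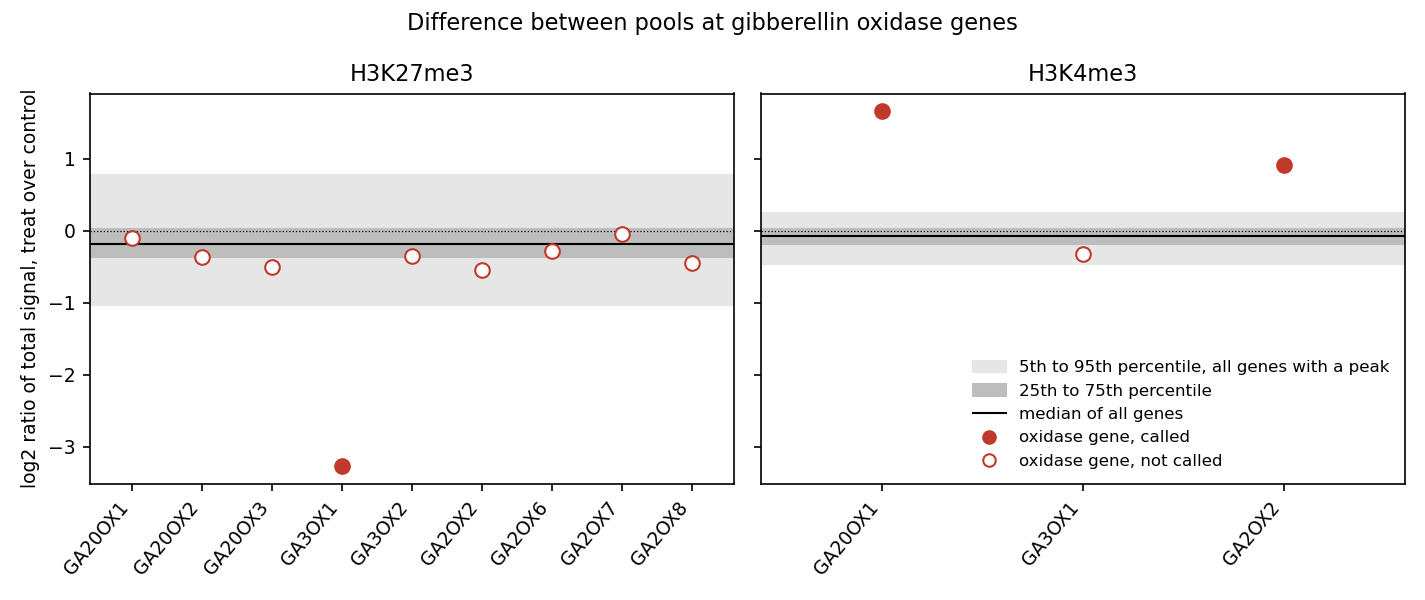
Log2 ratio of total signal, treat pool over control pool, at each gibberellin oxidase gene with a peak of H3K27me3 (left) or H3K4me3 (right). Filled points passed the FDR and fold thresholds, open points did not, grey bands span the 5th to 95th and 25th to 75th percentiles of all protein-coding genes with a peak, and the line is their median. In H3K27me3 only GA3OX1 (-3.27) falls outside the wider band, and in H3K4me3 GA20OX1 (1.66) and GA2OX2 (0.91) do.

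The H3K4me3 comparison asked the same of the mark of transcribed genes. Of the 3 genes with a peak, GA20OX1 and GA2OX2 were called higher in the treat pool, against 1.18% of the 16040 protein-coding genes with a peak. None was called lower, against 2.35%. GA20OX1 is a gene of synthesis and GA2OX2 one of degradation. All 3 peaks were low, below the lower quartile of mean signal over all peaks. Among the 3065 genes below that quartile, 5.74% were called higher. The median log2 ratio was 0.91 over the 3 genes, which is the value of GA2OX2, and -0.08 over all genes. No median was taken over the genes with low peaks.

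At GA20OX1 the H3K4me3 peak (chromosome 4, 12991810 to 12992400) had a total signal of 9615 in the treat pool and 3041 in the control pool, 3.16-fold higher at FDR 0.00995 in the authors' deposited table. Its deposited width was 590 bp in the treat pool and 10 bp in the control pool, so nearly all of its width was in the treat pool. The height was 1210 in the treat pool and 556 in the control pool, which was also called (FDR 0.0373 in the authors' deposited table). The low H3K27me3 peak of GA20OX1, toward the other end of the gene, was not called.

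At GA2OX2, which removes active gibberellin, the H3K4me3 peak (chromosome 1, 10537840 to 10538510) had a total signal of 10635 in the treat pool and 5647 in the control pool. It was 1.88-fold higher, and the authors' deposited table gives FDR 0.0348. The width was 670 bp in the treat pool and 310 bp in the control pool. Height, 1443 in the treat pool and 767 in the control pool, gave the same ratio of 1.88 but no call (FDR 0.0503 in the authors' deposited table).

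GA3OX1, whose H3K27me3 was called lower, showed no called difference in H3K4me3. Its peak (chromosome 1, 5345280 to 5346260) had a total signal of 10351 in the treat pool and 12910 in the control pool, a 1.25-fold difference at FDR 0.208 in the authors' deposited table. The width was 970 bp in the treat pool and 980 bp in the control pool. No oxidase gene was therefore called in both marks, and the share of all genes called in both was not computed.

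The calls rest on an FDR whose computation is not given in the sources used here. It was under 0.05 at 4.16% of the genes with an H3K27me3 peak and at 4.01% of those with an H3K4me3 peak. Of evenly spread values 5% would lie under 0.05, and both shares were below that. Whether the calls are controlled for the number of genes is therefore not known. The marks at a few marker genes were also listed, without a measure of how much of the tissue was meristem. The meristem genes STM and KNAT1 had peaks of both marks, and WUS and CLV3 of H3K27me3 only. The H3K4me3 peaks of STM (310 bp) and KNAT1 (250 bp) were low, at percentiles 4.03 and 2.71 of mean signal among all genes. They lay below the lower quartile of all peaks, so a filter on mean signal would remove them. The leaf genes LHCB1.1 and RBCS1A had H3K4me3 only, and the floral genes AP1 and AG had H3K27me3 only. In H3K27me3 all 4 meristem genes had lower total signal in the treat pool, like the oxidases and 73.0% of all genes with a peak. The floral genes AP1 (log2 ratio -0.23) and AG (-0.047) were lower too. The median log2 ratio of the meristem genes was -0.28, against -0.18 over all genes. None of the 4 was called, against 2.95% of all genes called lower and 1.17% called higher. By height STM was called lower, as GA20OX3 was, 1.52-fold at FDR 0.0494 in the authors' deposited table. In H3K4me3 KNAT1 had 7669 in the treat pool and 4372 in the control pool, at percentile 98.8 of the log2 ratio among all genes, and was not called (the authors' deposited table gives FDR 0.0614). This low KNAT1 peak had a width of 250 bp in the treat pool and 20 bp in the control pool. The part of the share of meristem cells in the oxidase results was not tested.

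The other genes of the pathway are given by list, with no test of any list. Of 5 genes upstream of the oxidases, 4 had an H3K4me3 peak and 1, GA1, which encodes the first committed enzyme, had an H3K27me3 peak. In H3K4me3 1 of the 4 was called lower, against 2.35% of all genes with a peak, and none higher, against 1.18%. Their median log2 ratio was -0.14, against -0.08 over all genes. The gene called lower was GA2, the gene of ent-kaurene synthase, with 10369 in the treat pool and 18473 in the control pool, 1.78-fold lower at FDR 0.0201 in the authors' deposited table. The GA2 peak lay below the lower quartile of mean signal, so a filter on mean signal would remove it. GA3, KAO1 and KAO2, which encode the cytochrome P450 oxidases that act next, had log2 ratios of -0.16 to -0.024 in H3K4me3.

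The remaining GA20OX, GA3OX and GA2OX genes were GA20OX4, GA20OX5, GA3OX3, GA3OX4, GA2OX3 and GA2OX4. Of these 6, 5 had a linked H3K27me3 peak, against 24.7% of all genes, and 0 a linked H3K4me3 peak, against 58.5%. An H3K4me3 peak did overlap GA3OX4, by 90 bp, under the limit of 150 bp. In H3K27me3 GA3OX4 was the 1 of 5 called lower, against 2.95% of all genes with a peak. The others ran from -0.38 at GA2OX4 to 0.13 at GA20OX5 on the log2 ratio, and the ratio of GA20OX5 turned to -0.28 with peak height. The list's median was -0.31, against -0.18 over all genes. GA2OX3 had neither mark, as GA2OX1 did. The other genes of inactivation, GAMT1 and GAMT2 (methyltransferases) and ELA1 and ELA2 (cytochrome P450 enzymes), all had H3K27me3 without H3K4me3. Of all protein-coding genes 21.3% had H3K27me3 only. None of these 4 genes of inactivation was called, against 2.95% lower and 1.17% higher over all genes with a peak. Their median log2 ratio was -0.28, against -0.18 over all genes. The peak of ELA2 covered 10.3% of the gene and was low, at percentile 5.68 of mean signal.

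All 10 genes of perception and response had an H3K4me3 peak, as 58.5% of all genes did. They were the GID1 receptors GID1A, GID1B and GID1C, the DELLA repressors GAI, RGA, RGL1, RGL2 and RGL3, and the F-box genes SLY1 and SNE. Their median log2 ratio was -0.14, against -0.08 over all genes. RGL3 was the 1 called higher, against 1.18% of all genes with a peak, and none was called lower, against 2.35%. RGL3 was also the only 1 of the 10 with an H3K27me3 peak, and the only pathway gene described here that was called in both marks. How many of all genes were called in both marks was not computed. Its H3K4me3 signal was 9653 in the treat pool and 3371 in the control pool, 2.86-fold higher at FDR 0.0127 in the authors' deposited table. RGL3 had 2 H3K4me3 peaks, which together covered 1440 bp of the gene, and the values given are of the linked one alone. The width of the linked peak was 770 bp in the treat pool and 0 bp in the control pool. It lay at percentile 3.70 of mean signal among all genes, below the lower quartile of all peaks, so a filter on mean signal would end the call. Its H3K27me3 signal was 4405 in the treat pool and 14487 in the control pool, 3.29-fold lower at FDR 0.0454 in the authors' deposited table. By height, 832 in the treat pool and 1952 in the control pool, RGL3 was still 2.35-fold lower in H3K27me3 but without a call (the authors' deposited table gives FDR 0.141). The DELLA genes GAI and RGA had H3K4me3 signals of 46918 and 45154 in the treat pool, against 52281 and 49268 in the control pool.

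**Figure D4:**
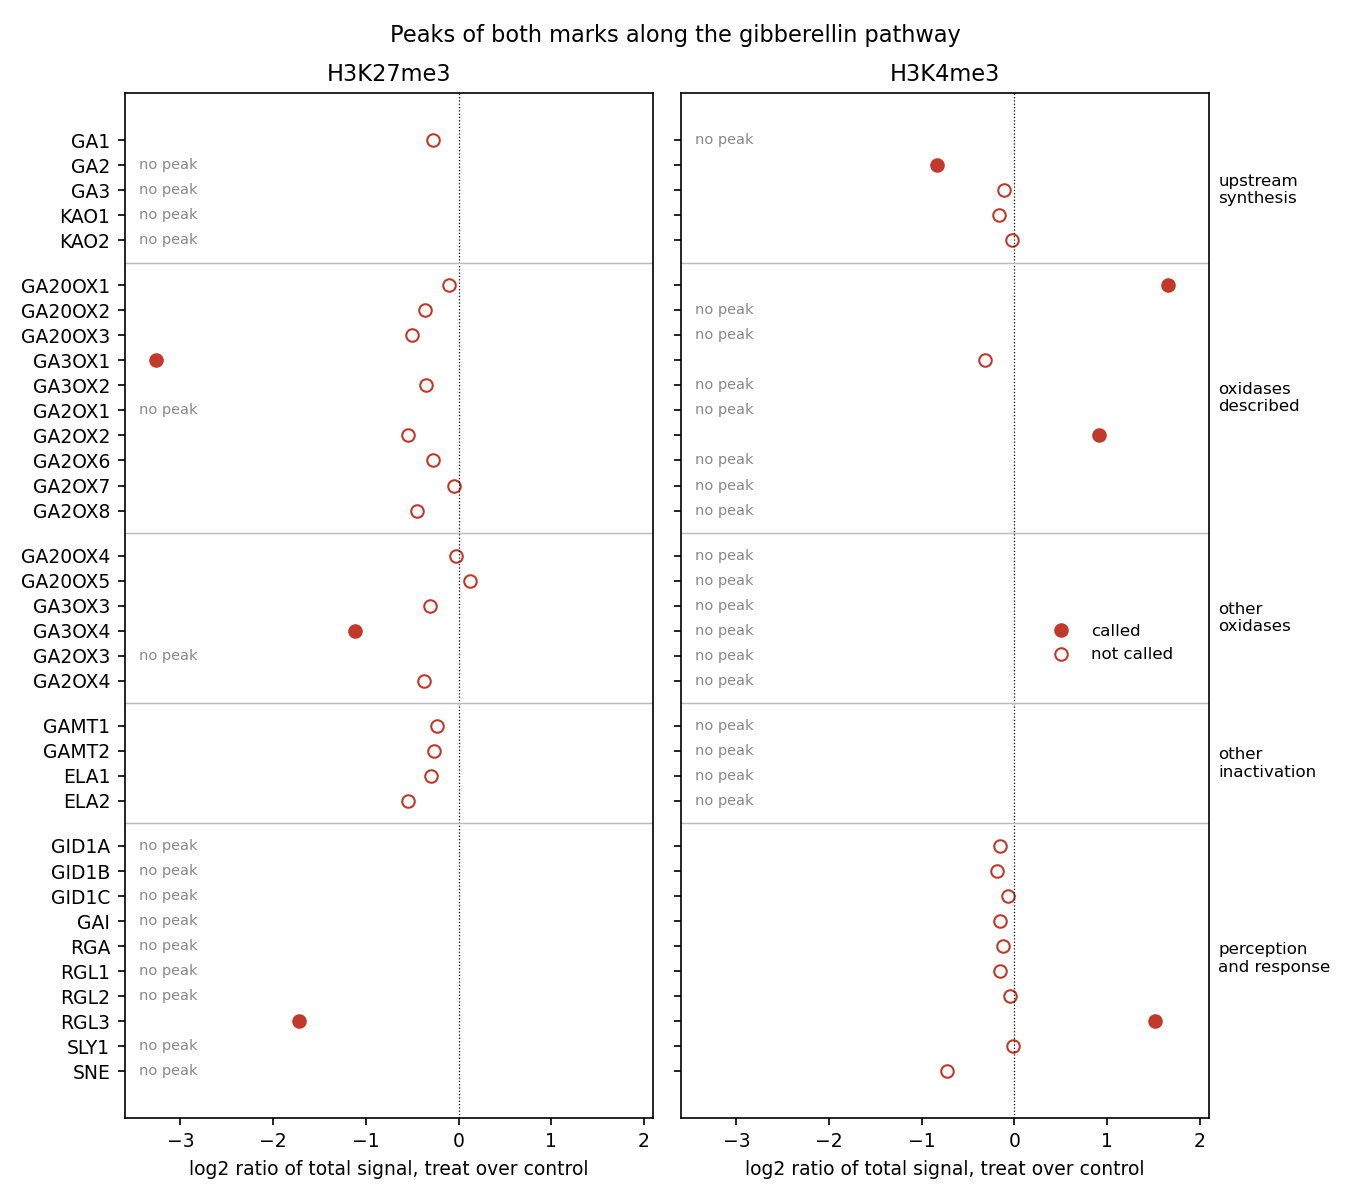
Log2 ratio of total signal, treat pool over control pool, for H3K27me3 (left) and H3K4me3 (right) at 35 genes of the gibberellin pathway, ordered from early synthesis at the top to response at the bottom; filled points passed the FDR and fold thresholds. H3K27me3 peaks lie at 9 of the 10 oxidases described and at 5 of 6 other oxidases, and H3K4me3 peaks at all 10 genes of perception and response.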

How the data were processed

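Per the labels' protocols, chromatin from each sample was divided among antibodies against H3K27me3, H3K4me3 and H3. Per the submitters' processing notes, Bowtie and the build TAIR10 are named, while normalization and peak caller are not given in the sources used here. For 2 pools per mark the authors deposited, per the file headers, peak height, width and total signal, as scores without a stated unit. Log2 ratios and FDR values are also as the authors deposited them. The FDR values were handled as q-values, which could not be checked.

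Genes came from a TAIR10.1 gene table without strand, whose coordinates are not printed. The larger deposited width equalled end minus start at 4864 of 10228 H3K27me3 and 9481 of 16032 H3K4me3 peaks and exceeded it at 0, so starts were read as the base before the peak. Links, ratios and calls were computed with Python 3.11.15, pandas 2.3.3 and numpy 2.4.6, and tested on simulated data. Rates are over all nuclear protein-coding genes with a peak. Percentiles are shares of those genes with a lower value. The oxidase genes and the pathway lists were chosen with earlier results of these data known, so no list was tested. The rule names all 10 oxidases, genes sharing their peaks and called pathway genes; other pathway genes were named after their values were seen. Alternatives changed the measure, thresholds, centring, signal filter, gene link and organelle peaks.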

Additional observations from a re-analysis of the deposited data

How the results depend on the processing

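No paired analysis was possible because the tables hold pools and no single replicate, which also prevents leaving replicates out. Called H3K27me3 genes went from 1 of 9 to 0 at FDR under 0.01, after filtering on mean signal or on the higher pool (the second filter was added after the data were seen) and with 50% of the gene body covered; both filters and the coverage rule remove the GA3OX1 peak by construction. With peak height the count was again 1, but of GA20OX3 in place of GA3OX1. Called H3K4me3 genes went from 2 to 1 with peak height, at 2-fold and at FDR under 0.01, each time leaving GA20OX1. The count was 0 with either filter, which removes all 3 peaks, and with 50% coverage, which leaves GA3OX1 alone and a median of -0.32. The H3K4me3 median could not be computed with the filters. The sign turned in H3K27me3 at GA20OX1 with peak height (0.18), and the cause was not tested. Recentring shifted every ratio by the same amount, which by construction turned the small ratios of GA20OX1 (to 0.038) and GA2OX7 (to 0.092). The thresholds, the 1 bp overlap and leaving out organelles left every ratio as it was by construction or because no linked peak changed. Depth is unknown, and low signal limits GA3OX1, GA20OX1 and GA2OX2.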

Other observations

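The oxidase genes without a linked H3K4me3 peak differed in how far the nearest one lay. At GA2OX8 an H3K4me3 peak (chromosome 4, 11306800 to 11307980) began 30 bp beyond the gene, with a total signal of 19081 in the treat pool and 21844 in the control pool. At GA2OX6 the nearest peak was 1089 bp away, at GA3OX2 2316 bp and at GA2OX7 4172 bp. GA20OX2 and GA20OX3 lay farthest from this mark, with the nearest H3K4me3 peaks 10379 bp and 10033 bp away. The peak nearest GA20OX2 had a total signal of 29309 in the treat pool and 33700 in the control pool. That nearest GA20OX3 was only 60 bp long and weak, with 2707 in the treat pool and 6870 in the control pool.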
